A study of Mus musculus with 5 samples.

Results

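The genes described here are 5 cyclins of the G1 phase of the cell cycle (Ccnd1, Ccnd2, Ccnd3, Ccne1 and Ccne2) and 5 inhibitors of cyclin-dependent kinases, or CDKs (Cdkn1a, Cdkn1b, Cdkn1c, Cdkn2a and Cdkn2c). They were taken by symbol from a count table of 24527 genes, which held all 10 of them. The table came from bulk RNA-seq of mouse prostate tumors, and the question asked of these genes was whether their transcript levels differed between tumors of castrated and of intact males. All 5 tumors came from TripleTg mice, which carry the alleles hHGFtg, H11 hMET/+, Ctnnb1 L(Ex3)/+ and PB Cre4. In these mice human HGF is expressed ubiquitously, whereas human MET and a stabilized form of β-catenin are switched on by Cre under the probasin promoter, which is active in prostate epithelium. The castrated group held 3 mice castrated at 4 months of age, and the intact group held 2 mice of the same age and genotype. Tumors of both groups were analyzed at 8 months of age, and each library came from a separate animal.

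Cells leave G1 when CDKs inactivate the retinoblastoma protein and release E2F transcription factors, which switch on the genes of DNA replication. D-type cyclins pair with CDK4 and CDK6 and couple this step to growth factor signals, among them MET and β-catenin, and E-type cyclins then pair with CDK2. Inhibitors of the Cip/Kip family, p21, p27 and p57, bind cyclin and CDK complexes broadly, whereas those of the INK4 family bind CDK4 and CDK6 alone.

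Castrated replicate 1 was the most deeply sequenced, with a total of 28015507 counts, followed by intact replicate 2 with 22853501, intact replicate 1 with 21560355, castrated replicate 3 with 20492061 and castrated replicate 2 with 18951782. Levels below are CPM, counts scaled to library size after correction by the trimmed mean of M-values, unless a level is given as TPM, which is also scaled to gene length. Epithelial keratins and adhesion genes were abundant in every tumor, with summed levels of 4253, 4017 and 4657 CPM for 8 epithelial markers in the castrated tumors and 6384 and 3949 CPM in the intact tumors. Markers of the prostate lineage differed between the intact tumors. Hoxb13, a homeobox gene of prostate epithelium, was at 70.5 CPM in intact replicate 2 and at 3.44 CPM in intact replicate 1, against 5.04, 20.5 and 25.8 CPM in the castrated tumors. The secretory gene Msmb was at 0 in all 5 tumors, and Pbsn, the gene whose promoter drives Cre in this model, did not exceed 5.19 CPM. Over all genes, which are no replicates of one another, the log2 CPM of intact replicate 1 had a correlation of 0.861 with intact replicate 2 and of 0.933 with castrated replicate 1. As the intact tumors stood this far apart, several values below are also given without one of them. In bulk tissue, fewer cells of a type and less RNA per cell cannot be told apart.

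Among the 10 genes, Cdkn2a was higher and Ccne2 was lower in every castrated tumor than in both intact tumors, and the levels of the other 8 genes overlapped between the groups. The test was edgeR's quasi-likelihood F-test on the 14612 genes that exceeded 1 CPM in 2 or more tumors, and all 10 genes were among these. A call required that the p adjusted by the Benjamini-Hochberg method be under 0.05 and that the log2 fold change exceed 1 in size. None of the 10 genes was called, and of all genes tested 0, or 0%, were called, with a smallest adjusted p of 0.289. DESeq2 called 989 genes and the likelihood ratio test in edgeR called 369, and Ccne2 was the member that DESeq2 called. At an unadjusted p under 0.05, 1 of the 10 genes was higher in castrated tumors (Cdkn2a), against 8.74% of all genes tested (1277 genes), and 1 of 10 was lower (Ccne2), against 6.28% (918 genes). Every castrated tumor was above both intact tumors for 1 of the 10 genes, against 17.0% of all genes tested, and below both for 1 of 10, against 16.1%. These member counts were near the background, and which genes they were changed with the tumors used. Cdkn2a kept an unadjusted p under 0.05 in 1 of the 5 fits that left out a tumor, that without castrated replicate 3, and Ccne2 in 2 of them, without castrated replicate 1 and without intact replicate 1. The log2 fold changes below are castrated over intact, and the median over all genes tested was -0.03.

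**Figure D1:**
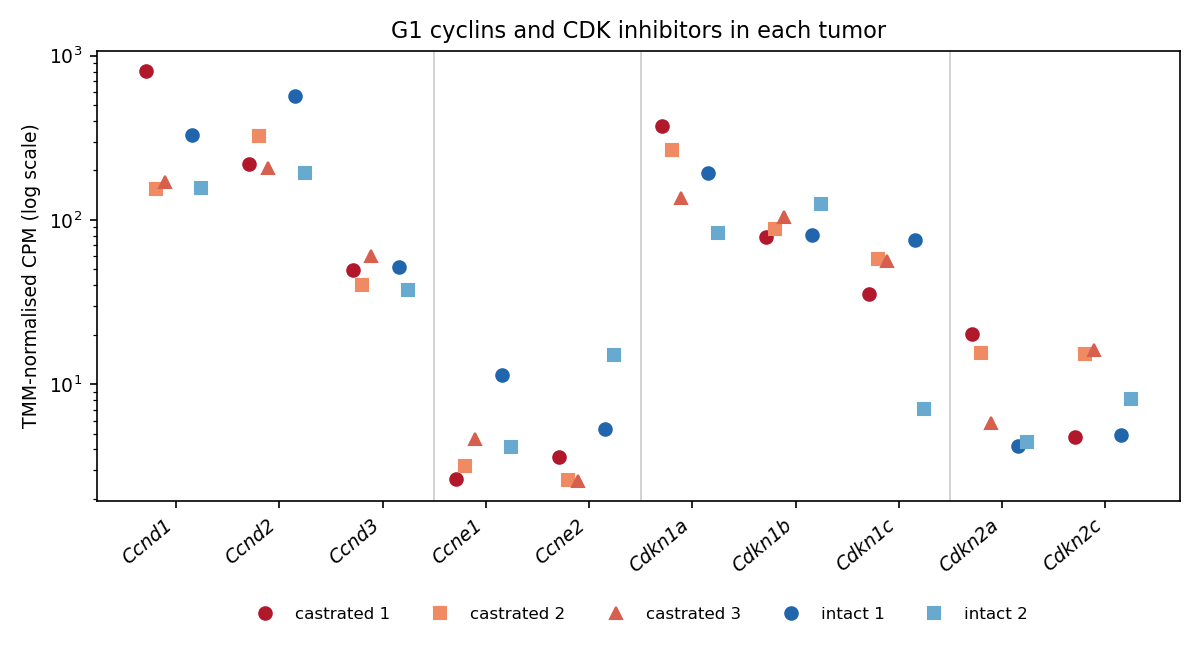
Level of each of the 10 genes in CPM on a log axis, with a point for each of the 3 castrated and 2 intact tumors. Ccne2 (2.57 to 3.62 against 5.36 and 15.01 CPM) and Cdkn2a (5.78 to 20.1 against 4.20 and 4.45 CPM) are the genes whose groups do not overlap.

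The D-type cyclins were described first. Ccnd1, which encodes cyclin D1 and lies on chromosome 7 from 144929931 to 144939925 (mm10, minus strand), was at 803.5, 153.7 and 170.3 CPM in castrated replicates 1, 2 and 3 and at 328.1 and 156.5 CPM in intact replicates 1 and 2. Castrated replicate 1 was the highest tumor, and the other 2 castrated tumors lay at or near the lower intact level. The log2 fold change was 0.63 (SE 0.85, adjusted p = 0.756), and it was -0.59 when castrated replicate 1 was left out. This gene had the widest spread of the 10 within the castrated group, with a ratio of 5.23 between its highest and lowest tumor.

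Ccnd2, encoding cyclin D2 (chromosome 6, 127125709 to 127151048, minus strand), was at 218.4, 324.9 and 206.8 CPM in castrated tumors and at 567.7 and 191.9 CPM in intact tumors. The intact tumors enclosed the castrated ones, and the log2 fold change of -0.60 (SE 0.50, adjusted p = 0.598) turned to 0.40 without intact replicate 1. Ccnd3, encoding cyclin D3 (chromosome 17, 47505051 to 47599688, plus strand), varied least among the D-type cyclins. It was at 49.6, 40.1 and 60.2 CPM in castrated tumors and 51.9 and 37.6 CPM in intact tumors. Its log2 fold change was 0.16 (SE 0.27, adjusted p = 0.808), and -0.055 without intact replicate 2.

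Per gene length, the summed level of the D-type cyclins was 641, 272 and 250 TPM in castrated tumors and 515 and 170 TPM in intact tumors, so the groups overlapped. Ccnd1 made up 78.0%, 35.4% and 41.8% of this sum in castrated tumors and 41.6% and 45.3% in intact tumors. In castrated replicate 1 alone Ccnd1 exceeded the other D-type cyclins together, and Ccnd2 was the leading D-type cyclin in castrated replicate 2 and in intact replicate 1. The mean Ccnd1 share differed by 8.28 percentage points between the groups (two-sided exact permutation test, p = 0.9, where 0.1 is the smallest p that 3 against 2 samples allow), and by -4.86 without castrated replicate 1. For the 8 shares compared within the D-type, E-type and Cip/Kip families, every exact p was 0.4 or more, and every p was 1 after Benjamini-Hochberg adjustment over them.

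**Figure D2:**
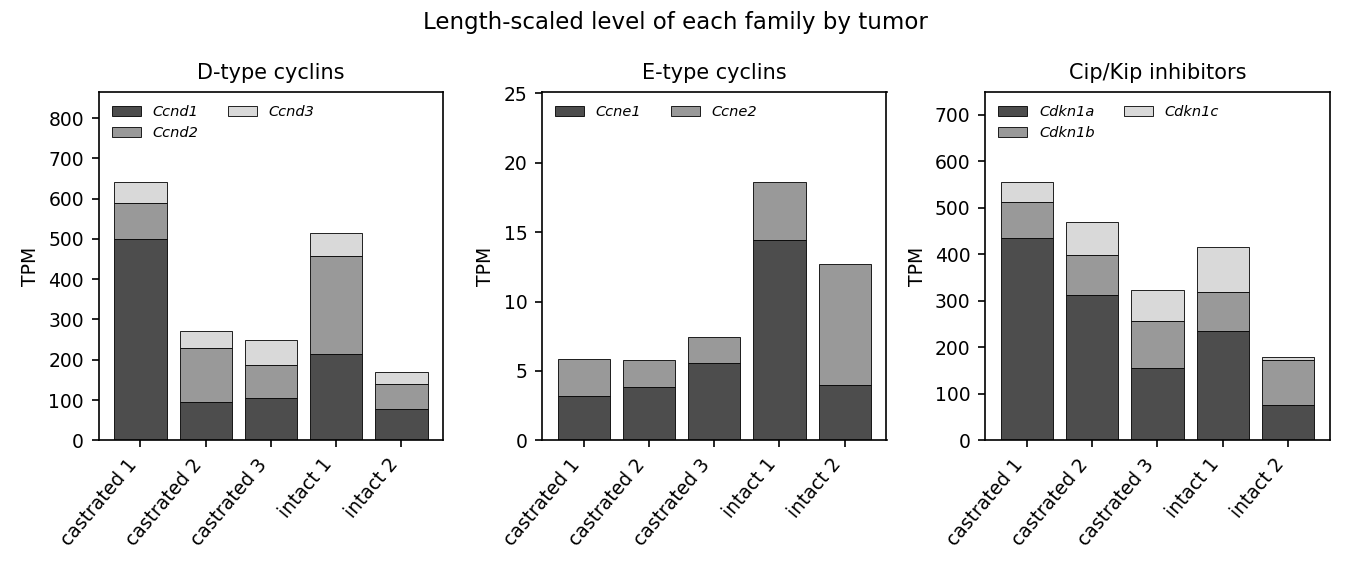
Summed level in TPM of the D-type cyclins, the E-type cyclins and the Cip/Kip inhibitors in each of the 5 tumors, with each bar divided by gene. Castrated replicate 1 has the highest D-type sum, 641 TPM, most of it Ccnd1, and both intact tumors have a higher E-type sum (18.6 and 12.7 TPM) than any castrated tumor (5.79 to 7.44 TPM).

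Per gene length, E-type cyclins were far less abundant than D-type cyclins in every tumor. Ccne1, encoding cyclin E1 (chromosome 7, 38097984 to 38107490, minus strand), was at 2.64, 3.15 and 4.66 CPM in castrated tumors and at 11.3 and 4.17 CPM in intact tumors. Castrated replicate 3 was above intact replicate 2, and the log2 fold change was -1.15 (SE 0.55, adjusted p = 0.385). It was -0.24 without intact replicate 1.

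Ccne2 encodes cyclin E2 and lies on chromosome 4 from 11191351 to 11204779 on the plus strand. It had 104, 49 and 53 counts in castrated tumors and 120 and 324 counts in intact tumors, which corresponded to 3.62, 2.62 and 2.57 CPM and to 5.36 and 15.01 CPM. All castrated tumors were below both intact tumors, while the intact tumors themselves differed by a ratio of 2.80. The log2 fold change was -1.79 (SE 0.53), the most negative of the 10 genes, and its adjusted p was 0.297 with edgeR and 0.0463 with DESeq2. Leaving out intact replicate 2 brought it to -0.86. The annotated span of Ccne2 shares 5622 bases with Ints8 on the opposite strand, and whether reads were counted by strand was not stated, so reads of these genes cannot be told apart there. Shorter overlaps with genes of the opposite strand set the same limit for the D-type cyclins. These were LTO1 for Ccnd1 (818 bases), 9330179D12Rik for Ccnd2 (1660 bases) and Bysl for Ccnd3 (358 bases). Ints8, an Integrator subunit, was at 41.6, 57.8 and 48.8 CPM in castrated tumors and 25.0 and 54.0 CPM in intact tumors.

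The E-type cyclin in the lead differed between the intact tumors. Ccne1 made up 77.7% of the E-type TPM in intact replicate 1 and 31.4% in intact replicate 2, and 54.7%, 66.5% and 74.9% in the castrated tumors. In castrated minus intact means this was 10.8 percentage points (exact permutation p = 0.7), but -12.4 without intact replicate 2 and 33.9 without intact replicate 1.

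Of the Cip/Kip inhibitors, Cdkn1a was the most abundant in TPM in 4 of the 5 tumors. Cdkn1a encodes p21, a target of p53 that arrests cells in G1, and lies on chromosome 17 from 29090979 to 29100722 on the plus strand. Its levels were 374.3, 266.9 and 135.5 CPM in castrated tumors and 193.1 and 82.7 CPM in intact tumors. Castrated replicates 1 and 2 were above both intact tumors, but castrated replicate 3 lay between them. Castrated over intact, this was a log2 fold change of 0.91 (SE 0.56, adjusted p = 0.482), which ranged from 0.42 to 1.67 when each tumor was left out in turn. Cdkn1a took 78.3%, 66.4% and 47.9% of the Cip/Kip TPM in castrated tumors and 56.6% and 42.2% in intact tumors, a mean difference of 14.8 percentage points (exact permutation p = 0.4).

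Cdkn1b encodes p27, whose amount is set largely by protein degradation, and lies on chromosome 6 from 134920401 to 134925525 on the plus strand. It was at 78.8, 87.6 and 104.1 CPM in castrated tumors and at 81.1 and 125.3 CPM in intact tumors, and it led the Cip/Kip genes in TPM in intact replicate 2. The log2 fold change was -0.19 (SE 0.26, adjusted p = 0.751), and 0.15 without intact replicate 2.

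Cdkn1c encodes p57 and is an imprinted gene expressed mainly from the maternal allele. It lies on chromosome 7 from 143458339 to 143461050 on the minus strand. Levels of 35.6, 57.9 and 56.6 CPM in castrated tumors lay between those of the intact tumors, which were 75.6 and 7.04 CPM and so differed by a ratio of 10.7. The log2 fold change of 0.27 (SE 0.90, adjusted p = 0.910) was -0.60 without intact replicate 2 and 2.85 without intact replicate 1. No comparison of the groups can be read from this gene apart from the difference between the intact tumors.

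The INK4 inhibitors were represented by Cdkn2a and Cdkn2c. Cdkn2a lies on chromosome 4 from 89274473 to 89294619 on the minus strand and encodes a pair of unrelated tumor suppressors, p16Ink4a, an inhibitor of CDK4 and CDK6, and p19Arf, which stabilizes p53 by holding back Mdm2. These transcripts start at different first exons and share later ones, and the table gives a single count for both, so the levels below are of their sum. To show the starts that this count merges, the 150 bases before each are given from RefSeq (GRCm38.p6), 5′ to 3′ on the minus strand, with a match to an E2F-type motif in capitals. The upstream start, which is that of p19Arf, follows chr4:89294620-89294769, and the downstream start, that of p16Ink4a, follows chr4:89282193-89282342.
Cdkn2a upstream start: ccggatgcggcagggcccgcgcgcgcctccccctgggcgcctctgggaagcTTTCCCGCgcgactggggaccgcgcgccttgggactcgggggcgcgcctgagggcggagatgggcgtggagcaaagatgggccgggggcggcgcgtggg
Cdkn2a downstream start: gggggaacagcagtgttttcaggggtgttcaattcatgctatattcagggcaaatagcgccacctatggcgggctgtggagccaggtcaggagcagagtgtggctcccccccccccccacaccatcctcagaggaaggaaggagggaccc

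The upstream stretch had a GC content of 78.7% and the downstream stretch one of 60.0%. The motifs TTTCCCGC and TTTGGCGC, of 8 bases each, were searched for on both strands in the 250 bases before each start. A match was found in 427 of 32851 promoters of the RefSeq table (1.3%) and in 1 of 10 promoters of the genes studied, which was that of the upstream Cdkn2a start, where it began 99 bases before the transcript. The table had entries for 6 of the 10 genes and none for Ccnd1, Ccnd2, Ccne2 and Cdkn1c. A match of letters is a description of the sequence and not a measured binding site.

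Cdkn2a had 577, 291 and 119 counts in castrated tumors and 94 and 96 counts in intact tumors, or 20.1, 15.6 and 5.78 CPM and 4.20 and 4.45 CPM. Every castrated tumor was above both intact tumors, with castrated replicate 3 closest to them, and the intact tumors differed by a ratio of only 1.06. The log2 fold change was 1.67 (SE 0.60), the most positive of the 10 genes, and its adjusted p was 0.316 with edgeR and 0.0844 with DESeq2. It ranged from 1.30 to 2.04 when each tumor was left out in turn. The nearest patterns over the 5 tumors were those of F830045P16Rik and of Ntm, a neuronal adhesion gene. Their root mean square differences were 0.13 and 0.15 in centred log2 CPM. Next was Sesn2, a p53 target of the stress response, at 0.28.

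Cdkn2c, encoding p18Ink4c (chromosome 4, 109660876 to 109666756, minus strand), was at 4.80, 15.2 and 16.1 CPM in castrated tumors and at 4.91 and 8.11 CPM in intact tumors. Castrated replicates 2 and 3 were above both intact tumors, whereas castrated replicate 1 was the lowest of all 5. This gave a log2 fold change of 0.88 (SE 0.62, adjusted p = 0.537).

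**Figure D3:**
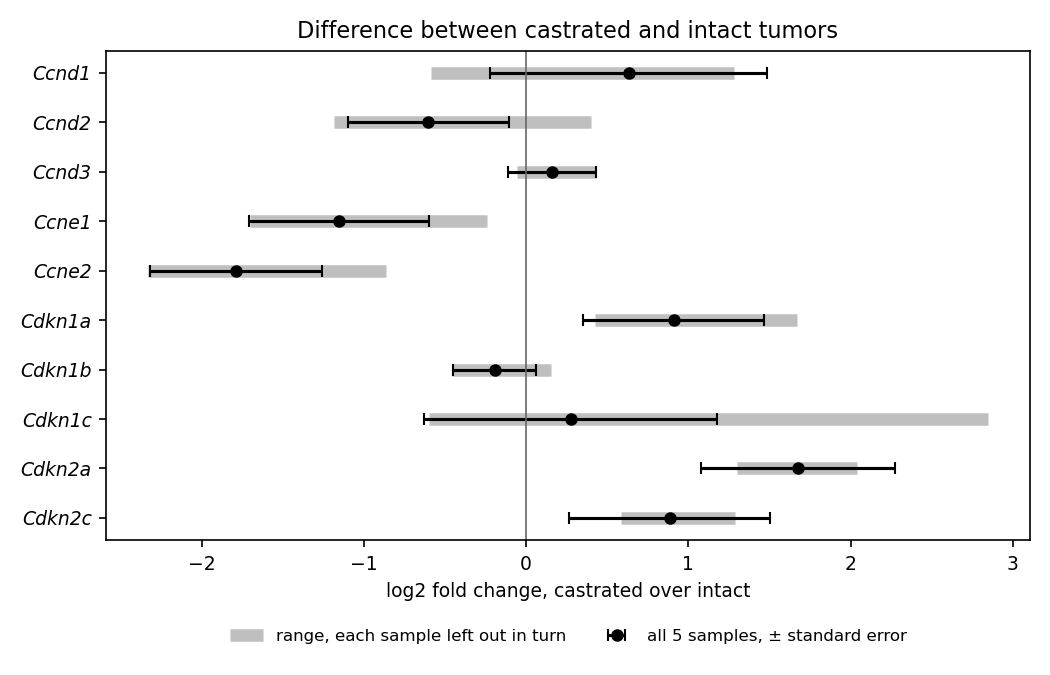
Log2 fold change of each of the 10 genes, castrated over intact, with error bars of 1 SE from the edgeR fit and a grey bar for the range of values when each tumor was left out in turn. The grey bars of Ccnd1, Ccnd2, Ccnd3, Cdkn1b and Cdkn1c cross 0, and those of Ccne1, Ccne2, Cdkn1a, Cdkn2a and Cdkn2c do not.

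Other genes of the same pathway were read by lists. Among 7 G1 kinases and their activators, all 7 had a negative log2 fold change with a median of -0.44. At an unadjusted p under 0.05, 1 was lower, against 6.28% of all genes tested. This was Cdk2, the partner of cyclin E, at 21.8, 29.1 and 25.1 CPM in castrated tumors and 43.8 and 39.5 CPM in intact tumors (log2 fold change -0.72, SE 0.22, adjusted p = 0.300). Its groups did not overlap, and neither did those of Cdk4, the partner of cyclin D, at 125.7 to 182.5 against 190.0 and 205.8 CPM. Cdk7, the CDK-activating kinase, was also lower in every castrated tumor, with a log2 fold change of -0.51 (SE 0.22, adjusted p = 0.353). Cdc25a, a phosphatase that activates CDK2, overlapped between the groups. None of the 3 other inhibitors listed had an unadjusted p under 0.05, and their groups overlapped: Cdkn3 had a log2 fold change of -1.31 (SE 0.79), Cdkn2b of -0.31 (SE 0.67) and Cdkn2d of 0.17 (SE 0.35).

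Of 12 genes of the ubiquitin ligases that degrade G1 regulators, 2 were lower and 0 were higher at an unadjusted p under 0.05. Of all genes tested, 6.28% were lower and 8.74% higher at that p. The median log2 fold change of the 12 was -0.15. In 7 of the 12 every castrated tumor was below both intact tumors, against 16.1% of all genes tested. In 1 every castrated tumor was above both intact tumors, against 17.0%. Dtl is the substrate receptor of the ligase that degrades p21 and Cdt1. It was at 4.83, 4.17 and 3.98 CPM in castrated tumors and 13.4 and 15.3 CPM in intact tumors. This was a log2 fold change of -1.72 (SE 0.30, adjusted p = 0.289), and Dtl was the gene of this list that DESeq2 and the likelihood ratio test called. Cks1b, which helps the Skp2 ligase to bind p27, had a log2 fold change of -1.08 (SE 0.37, adjusted p = 0.309), and its groups did not overlap. Skp2 itself was at 5.32, 8.07 and 6.02 CPM in castrated tumors and 8.17 and 15.2 CPM in intact tumors. The gene above both intact tumors was Fbxo31, a receptor for cyclin D1 (29.8 to 38.9 against 19.0 and 27.6 CPM).

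Genes that act after G1 were read in 2 lists. The quasi-likelihood test called 0 genes of either list, whereas DESeq2 called 4 of each and the likelihood ratio test 3 of each, all of them lower in castrated tumors. Of all 14612 genes tested, DESeq2 called 989 and the likelihood ratio test 369. Every castrated tumor was below both intact tumors in 16.1% of all genes tested. At an unadjusted p under 0.05, 6.28% of all genes tested were lower. All 5 of the S, G2 and M phase genes Ccna2, Ccnb1, Ccnb2, Ccnf and Cdk1 were below both intact tumors in every castrated tumor, 4 of 5 had an unadjusted p under 0.05, and their median log2 fold change was -1.72. Cdk1, the mitotic kinase, was at 7.51, 9.51 and 11.7 CPM in castrated tumors and 28.2 and 30.7 CPM in intact tumors. Its log2 fold change was -1.62 (SE 0.29, adjusted p = 0.289). Ccnb1, its cyclin B1 partner, had a log2 fold change of -1.97 (SE 0.42). The median of the list stayed between -2.03 and -1.48 when each tumor was left out in turn. Of 12 E2F-driven genes of proliferation, of which Ccna2 is also on the previous list, all 12 had a negative log2 fold change, 10 of 12 had groups that did not overlap, 6 had an unadjusted p under 0.05, and the median was -0.88, or -0.99 to -0.59 when each tumor was left out in turn. The groups overlapped for the other 2, Mcm6 and Rrm2. Mki67, which encodes the proliferation antigen Ki-67, was at 18.7, 30.4 and 40.2 CPM in castrated tumors and 100.5 and 127.3 CPM in intact tumors (log2 fold change -1.94, SE 0.35, adjusted p = 0.289). Top2a, the topoisomerase of replicating DNA, and Tyms, thymidylate synthase, had log2 fold changes of -1.65 (SE 0.30) and -1.09 (SE 0.32). The paper, by gene set enrichment on its own list of differing genes, reported E2F among the pathways enriched in castrated against intact tumors. That measure differs from the short list read here, and the reason for the unlike results was not tested.

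Of 12 p53 target genes other than Cdkn1a, 11 had a positive log2 fold change, with a median of 0.61. At an unadjusted p under 0.05, 3 were higher, against 8.74% of all genes tested. In the same 3 every castrated tumor was above both intact tumors, against 17.0% of all genes tested. These were Btg2, an antiproliferative gene, at 161.3, 118.2 and 140.3 against 93.2 and 63.5 CPM (log2 fold change 0.84, SE 0.26, adjusted p = 0.300), Sesn2 (1.17, SE 0.38) and Trp53inp1 (0.93, SE 0.36). Phlda3, an inhibitor of Akt, had a log2 fold change of 0.86 (SE 0.44). The median of the list ranged from 0.01 to 1.08 when each tumor was left out, with the lowest value without castrated replicate 1. In that tumor 11 of the 12 genes had their highest level, against 15.2% of all genes tested, and Cdkn1a had its highest level there too. The list summed to 2104, 1281 and 998 CPM in castrated tumors and 1121 and 846 CPM in intact tumors. Phlda3 and Eda2r, the latter named after its values were seen, followed the same order of the 5 tumors as Cdkn1a, an order that 0.739% of all genes tested had. A list of 8 FOXO genes held Foxo1 and Foxo3, which encode FOXO factors themselves. Its other genes are FOXO targets, which respond to low PI3K and Akt activity as Cdkn1b does. Of the 8 genes, 4 were higher and 4 lower, and 0 had an unadjusted p under 0.05 in either direction. Their median was -0.02, ranging from -0.23 without castrated replicate 3 to 0.69 without intact replicate 2. Those with the smallest p were Ccng2 (-0.55, SE 0.29), Foxo1 (0.72, SE 0.44), Foxo3 (0.59, SE 0.38) and Pdk4 (0.78, SE 0.62), in log2 fold change.

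**Figure D4:**
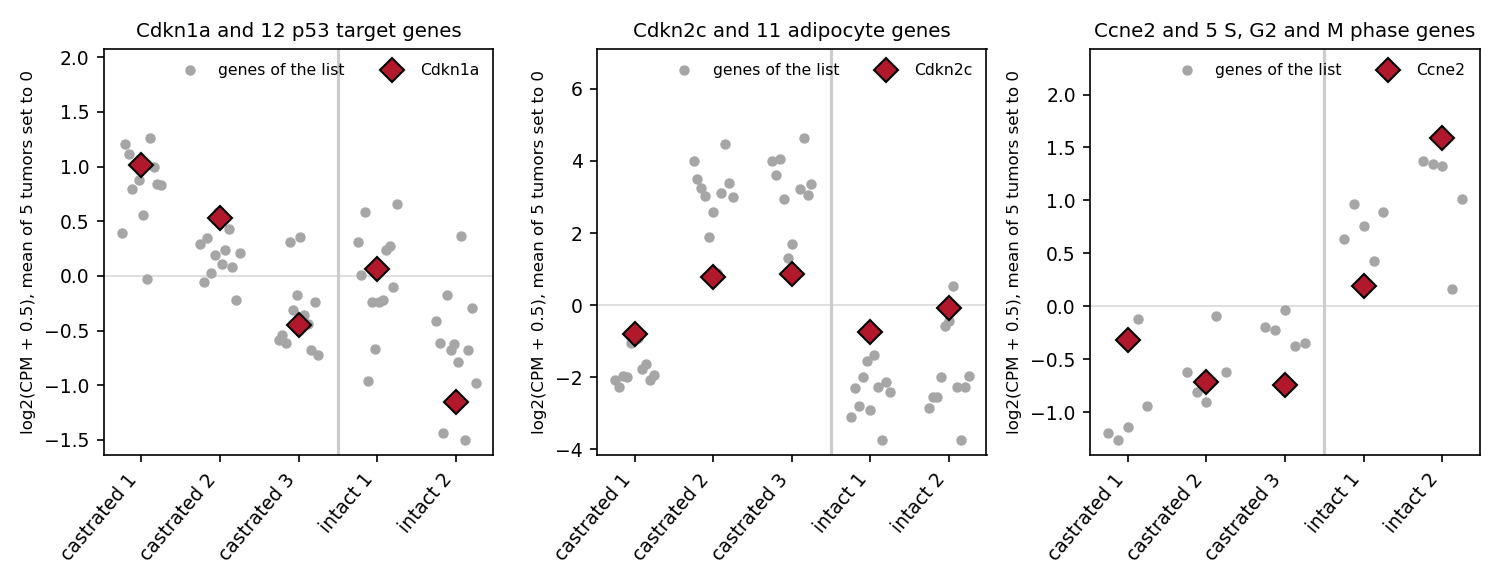
Levels of 3 of the genes (red diamonds) and of the genes of a list (grey points) in each of the 5 tumors, as log2(CPM + 0.5) with each gene's mean over the tumors set to 0. Castrated replicate 1 is the highest tumor for Cdkn1a and for 11 of 12 p53 target genes, castrated replicates 2 and 3 are the highest for Cdkn2c and for the adipocyte genes (as they are for the summed macrophage, T cell and smooth muscle markers, not plotted), and both intact tumors are the highest for Ccne2.

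Of the markers of other cell types, 0 were called by the quasi-likelihood test, and those of macrophages and smooth muscle separated the groups most fully. The 11 adipocyte markers all had a positive log2 fold change, 7 of 11 with an unadjusted p under 0.05, and summed to 207, 2412 and 1588 CPM in castrated tumors and 73.2 and 302 CPM in intact tumors, with Lpl, a lipase also made by other cells, the most abundant. The adipocyte sum of castrated replicate 1 lay below that of intact replicate 2, so the groups overlapped. DESeq2 called 7 adipocyte, 5 macrophage, 6 smooth muscle, 1 endothelial and 1 basal epithelial marker, and the likelihood ratio test called 7, 0, 5, 0 and 1, each of them higher in castrated tumors. Of all 14612 genes tested, these tests called 989 and 369. In the quasi-likelihood test 8.74% of all genes tested were higher at an unadjusted p under 0.05. Adipoq, the adipocyte hormone adiponectin, was at 68.5 and 68.1 CPM in castrated replicates 2 and 3 and at 0.52 CPM or less in the other tumors, and Lep was at 0 in castrated replicate 1 and in both intact tumors. Cdkn2c was highest in the same 2 tumors, which also had the highest macrophage, T cell and smooth muscle sums, and the part of any of these cell types in its level was not tested. The 10 macrophage markers were all higher in every castrated tumor, with sums of 2676, 7477 and 3039 against 1145 and 1695 CPM, and were led by Lyz2. The 8 smooth muscle markers, led by Acta2, summed to 412, 720 and 664 CPM in castrated tumors and 246 and 156 CPM in intact tumors, and 7 of them did not overlap. Every castrated tumor was above both intact tumors in 17.0% of all genes tested. Of 6 endothelial markers, 5 had a positive log2 fold change, 3 (Pecam1, Kdr and Tek) had groups that did not overlap and 2 (Kdr and Tek) had an unadjusted p under 0.05, while their sums overlapped (237 to 366 against 138 and 388 CPM) with Cdh5 at 226 CPM in intact replicate 1. The groups overlapped too in the sums of 6 T cell markers (12.8 to 50.2 against 3.35 and 33.8 CPM). Basal epithelial markers summed to 313, 341 and 848 CPM in castrated tumors and 76.1 and 700 CPM in intact tumors, with Krt5 the most abundant. They differed among themselves. Krt15, the basal marker called, was above both intact tumors in every castrated tumor (log2 fold change 2.39, SE 0.65). Krt5, Krt14 and Trp63 overlapped between the groups and had negative log2 fold changes. The part of these cells in the levels of Cdkn2a, Ccne2 and the proliferation genes was not tested. When libraries were scaled to the epithelial markers instead, each of the 10 genes kept the sign of its log2 fold change. Sizes moved, from -0.60 to -0.28 for Ccnd2 and from 0.27 to 0.74 for Cdkn1c. Such scaling leaves the RNA of other cell types in the counts and so does not test their part.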

How the data were processed

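Libraries were depleted of ribosomal RNA and sequenced from both ends. The authors used Trimmomatic 0.39 for trimming, STAR 2.7.9 for alignment to mm10 and HTSeq 2.0.2 for counting, and the deposited values are raw counts. Whether counting used strand was not stated. Counts were tested with edgeR 4.0.16 in R 4.3.3, with the filter and thresholds of the study's methods, which name TPM as input. Counts were used because the test is made for them. The paper reported differing genes between these groups under those thresholds, whereas 0 were called here. The SE was obtained from the size of the log2 fold change over the root of its F statistic. TPM came from the deposited gene lengths. TMM factors were 0.945 to 1.039 and the common dispersion between mice was 0.238, which limits precision more than depth does for all but the genes with few counts.

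The 10 genes and all lists were chosen with earlier results of these data known, and list counts are descriptions. Named were the 10 genes, up to 4 genes per list with the smallest unadjusted p, and the 3 genes nearest in pattern to the member with the largest rise and to that with the largest fall. Genes named outside this rule (Eda2r, Ccnf, Mcm6, Rrm2, Ints8, the genes neighbouring the members, Coch and single cell type markers) were chosen after their values were seen. Same-numbered tumors were different animals. No pair of libraries in a group was a duplicate (chi-square per gene of 133 or more). Alternatives were DESeq2 1.42.0, limma 3.58.1 (voom, and trend on TPM), other scalings and filters, a replicate block and leaving out each tumor. Scaling to epithelial markers was chosen after seeing the data. One prostate lineage marker is not reported here.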

Additional observations from a re-analysis of the deposited data

How the results depend on the processing

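The 0 genes called by edgeR's quasi-likelihood test became 989 under DESeq2, 369 under the likelihood ratio test and 0 to 1 when each tumor was left out (Coch without intact replicate 1). The 1596 genes past the fold threshold at an unadjusted p under 0.05 became 975 with the replicate block, and 898 to 2588 when each tumor was left out, lowest without castrated replicate 3 and highest without intact replicate 1. The members with an unadjusted p under 0.05 numbered 2, and 1 with limma voom and 0 to 2 when each tumor was left out, with 0 without castrated replicate 2 and 1 without castrated replicate 3. They were not always the same genes. Ccne2 was joined by Cdkn2c without castrated replicate 1 and by Cdkn1c without intact replicate 1, Ccnd2 and Ccne1 were the 2 without intact replicate 2, and Cdkn1a and Cdkn2a were the 2 with the replicate block, where the unadjusted edgeR p of Ccne2 went from 0.0184 to 0.125 and that of Cdkn1a from 0.162 to 0.0202. The voom gene was Ccne2, and epithelial scaling gave 3, with Cdkn1a added. The same-numbered tumors shared only a number, with correlations of their deviations of 0.165 and -0.037. With the block as without it, the quasi-likelihood test called 0 of the 10 genes, which says nothing of their stability. When each tumor was left out, log2 fold changes ranged from -0.59 to 1.28 for Ccnd1, -1.18 to 0.40 for Ccnd2, -0.055 to 0.43 for Ccnd3, -0.46 to 0.15 for Cdkn1b and -0.60 to 2.85 for Cdkn1c. The difference in share of family TPM ranged from -12.4 to 33.9 percentage points for Ccne1, from -33.9 to 12.4 for Ccne2, from -32.9 to 1.05 for Cdkn1b, from -8.63 to 10.9 for Cdkn1c, from -4.86 to 16.4 for Ccnd1, from -18.3 to -0.66 for Ccnd2, from -2.87 to 5.52 for Ccnd3 and from 7.59 to 23.0 for Cdkn1a. Ccne2 passed the threshold under DESeq2 (adjusted p = 0.0463), and its adjusted p reached 0.748 elsewhere. Over all 17 alternatives Ccne1, Ccne2, Cdkn1a, Cdkn2a and Cdkn2c kept their direction. The median log2 fold change of all genes moved from -0.03 to 0.09 with epithelial scaling and to 0.12 with limma trend on TPM, where 60.5% of genes were higher in castrated tumors against 47.9%. The cause of these changes was not tested.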

Other observations

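Genes near some members on the chromosome are given here, chosen after their values were seen. Ccnd1 was 2.31 higher on the log2 scale in castrated replicate 1 than in the mean of castrated replicates 2 and 3, the 141st largest such difference of 14612 genes. Its tested neighbours within 500 kb, which were Cttn, Ppfia1, Fadd, Ano1, Fgf3, LTO1, Tpcn2 and Mrgprf, differed by -1.12 to 1.04 on the same scale.

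Mtap was chosen for its own low level in intact replicate 1, a tumor in which Cdkn2a (4.20 CPM) was close to its level in intact replicate 2 (4.45 CPM). Mtap, a methionine salvage gene 93.4 kb from Cdkn2a, was at 13.0 CPM in intact replicate 1, against 69.1 CPM in intact replicate 2 and 77.2, 72.6 and 59.8 CPM in the castrated tumors. On the log2 scale, intact replicate 1 minus the mean of the other 4 tumors was -2.37, the 324th lowest such value among 14612 genes. Cdkn2b, 11.7 kb from Cdkn2a on the other side, had its highest level in that same tumor, 52.1 CPM, against 11.996 CPM in intact replicate 2 and 37.5, 22.9 and 17.4 CPM in the castrated tumors.

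Of 19 tested neighbours of Cdkn1c within 500 kb, 12 had, like Cdkn1c, their lowest level in intact replicate 2, where 27.5% of all genes tested had theirs. The neighbours with their highest level there were Nap1l4 and Kcnq1ot1, and 31.3% of all genes tested were highest in that tumor. Kcnq1ot1, an RNA of the same imprinted cluster, was at 47.3 CPM in intact replicate 2, against 32.7 CPM in intact replicate 1 and 23.4, 18.1 and 19.3 CPM in castrated tumors. Kcnq1ot1 is antisense to Kcnq1, whose reads cannot be told apart from it without strand. Trp53cor1, a p53-induced long noncoding RNA 11.9 kb from Cdkn1a, was at 4.55, 2.24 and 1.36 CPM in castrated tumors and 1.03 and 0.46 CPM in intact tumors and so, like Cdkn1a, had its highest level in castrated replicate 1 and its lowest in intact replicate 2.

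The 3 genes nearest in pattern to Ccne2 over the 5 tumors were Klf12, Rpl22l1 and Rpl32l, with root mean square differences of 0.12, 0.13 and 0.13 in centred log2 CPM. All 3 had their highest level in intact replicate 2. Rpl22l1, a paralog of a ribosomal protein gene, was at 137.4, 81.4 and 93.8 CPM in castrated tumors and 193.4 and 507.8 CPM in intact tumors.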
